A study of Mus musculus with 2 samples.

Results

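The genes described here are 10 genes of protein folding and of the unfolded protein response in the endoplasmic reticulum (ER): Hspa5, Hsp90b1, Pdia4, Pdia6, Calr, Canx, Xbp1, Sdf2l1, Dnajb9 and Herpud1. They were taken by symbol from the 32285 genes listed, and each symbol matched 1 row. They were measured by single-cell RNA sequencing in E14, a mouse embryonic stem cell line of 129/Ola background kept on gelatin in serum with leukaemia inhibitory factor. The control library holds cells given a control siRNA, and the sonKD library holds cells given siRNA that targets Son, a nuclear speckle protein that takes part in splicing. In both cases cells were collected 24 h later, stored frozen, sorted for living cells with the dye 7-AAD after thawing, and barcoded with 10x Genomics 3′ chemistry. With 1 library in each group there was no replicate and no test, and a difference between libraries cannot be told apart from an effect of the siRNA.

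Proteins that enter the ER are folded there by chaperones, are joined by disulfide bonds and are checked before they leave. When unfolded proteins build up, the membrane sensors IRE1, PERK and ATF6 raise the transcription of chaperones, of folding enzymes and of factors that remove misfolded proteins. HSPA5 (BiP) binds the sensors as well as unfolded chains, and XBP1, whose mRNA is spliced by IRE1, is one of the transcription factors of the response.

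Cells were barcodes with at least 2500 UMIs (unique molecular identifiers, 1 per captured molecule), 1000 or more genes and no more than 10% mitochondrial UMIs. They numbered 4978 in control, with 40902904 UMIs in sum, and 2731 in sonKD, with 32032551 UMIs. The median cell had 7738 UMIs in control and 11612 in sonKD, and the libraries shared 2 barcodes. Of the barcodes that met the UMI and gene minimum, 625 of 5603 in control and 1056 of 3787 in sonKD (27.9%) were over the mitochondrial limit. The level of Son itself was 168.5 UMIs per 1000000 UMIs (CPM) in control against 105.7 CPM in sonKD, a log2 ratio of −0.67 (95% interval −0.73 to −0.61). All 8 embryonic stem cell markers were above 10 CPM in both libraries. The 9 primitive endoderm markers summed to 35.7 and 28.6 CPM, and of the 7 fibroblast markers, which summed to 3.18 and 3.65 CPM, Col3a1, Postn and Lum were at 0 in both libraries and Dcn in sonKD.

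The promoters of the group carry letters by which the response is known to act. ATF6, with the factor NF-Y, is known to bind the ER stress response element (ERSE), whose parts are CCAAT and CCACG with 9 bases between them. In the 250 bases before the RefSeq start, on either strand, 5 of the 10 genes held an ERSE, against 37 of 32817 promoters of all genes, or 0.113%. These were Hspa5, Hsp90b1, Calr, Canx and Pdia6, which were also the 5 genes with the highest levels here. Hsp90b1 held it in 2 places. Herpud1 held the variant ERSE-II, which is ATTGG and CCACG with 1 base between them and which was found in 10 of all promoters, or 0.0305%. Hspa5 alone of the group held the core of the unfolded protein response element, TGACGTG followed by G or A, found in 300 of all promoters, or 0.914%. No motif overlapped another in these windows, and a match is a description of the letters, not of binding. The windows are shown 5′ to 3′ on the strand of the gene, ending at the base before the start, with the matches in capitals.
Hspa5 (GRCm38.p6, chr2:34771840-34772089, + strand): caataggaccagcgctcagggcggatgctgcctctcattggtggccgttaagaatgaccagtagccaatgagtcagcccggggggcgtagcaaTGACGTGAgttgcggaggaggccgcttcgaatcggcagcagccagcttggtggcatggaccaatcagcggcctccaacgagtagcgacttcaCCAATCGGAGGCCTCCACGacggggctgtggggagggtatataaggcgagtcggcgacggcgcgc
Hsp90b1 (GRCm38.p6, chr10:86705445-86705694, - strand): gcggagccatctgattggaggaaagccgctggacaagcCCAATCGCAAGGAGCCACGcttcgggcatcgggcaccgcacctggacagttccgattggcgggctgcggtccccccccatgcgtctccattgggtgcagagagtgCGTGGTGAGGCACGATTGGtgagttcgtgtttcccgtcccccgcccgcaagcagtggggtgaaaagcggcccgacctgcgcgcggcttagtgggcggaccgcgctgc
Calr (GRCm38.p6, chr8:84846932-84847181, - strand): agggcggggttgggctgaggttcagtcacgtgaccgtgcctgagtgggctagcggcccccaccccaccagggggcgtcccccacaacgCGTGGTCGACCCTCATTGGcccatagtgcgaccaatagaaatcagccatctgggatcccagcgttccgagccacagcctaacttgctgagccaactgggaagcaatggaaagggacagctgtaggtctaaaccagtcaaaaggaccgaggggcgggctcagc
Canx (GRCm38.p6, chr11:50325674-50325923, - strand): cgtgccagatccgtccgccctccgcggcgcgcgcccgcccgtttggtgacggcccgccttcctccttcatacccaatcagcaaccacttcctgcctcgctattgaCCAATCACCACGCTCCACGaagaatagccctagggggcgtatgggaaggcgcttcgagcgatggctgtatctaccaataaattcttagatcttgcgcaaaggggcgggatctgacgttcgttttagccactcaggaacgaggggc
Pdia6 (GRCm38.p6, chr12:17266339-17266588, + strand): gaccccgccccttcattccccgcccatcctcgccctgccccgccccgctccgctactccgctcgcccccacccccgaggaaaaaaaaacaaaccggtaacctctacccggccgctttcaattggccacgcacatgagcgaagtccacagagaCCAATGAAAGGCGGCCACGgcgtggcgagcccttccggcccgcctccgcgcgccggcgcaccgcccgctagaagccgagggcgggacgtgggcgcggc
Herpud1 (GRCm38.p6, chr8:94386179-94386428, + strand): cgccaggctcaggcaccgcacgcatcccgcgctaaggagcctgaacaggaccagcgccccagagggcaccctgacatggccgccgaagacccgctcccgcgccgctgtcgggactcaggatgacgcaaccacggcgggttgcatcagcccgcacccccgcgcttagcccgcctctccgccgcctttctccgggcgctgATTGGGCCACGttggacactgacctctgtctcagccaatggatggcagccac

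In Hspa5 the ERSE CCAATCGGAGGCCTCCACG lay 65 to 47 bases before the start. In Hsp90b1 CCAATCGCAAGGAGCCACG lay 212 to 194 bases before it, and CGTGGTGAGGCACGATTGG, which is an ERSE on the other strand, lay 107 to 89 bases before it. In Calr the element was also on the other strand, as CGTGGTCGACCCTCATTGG, 162 to 144 bases before the start. Canx carried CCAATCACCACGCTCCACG at 145 to 127 and Pdia6 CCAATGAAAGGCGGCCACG at 98 to 80 bases before the start. The windows of Pdia4, Xbp1, Sdf2l1 and Dnajb9 held none of these letters, which says nothing about sites elsewhere or with other letters.

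No gene of the group was at least 25% higher in sonKD than in control, and Calr alone was at least 20% lower, the same fold in the other direction. Of the 8063 genes whose level averaged 10 CPM or more, 3.5% were that much higher and 10.2% that much lower, so 0 and 1 of 10 are near the background. The median log2 ratio of the 10 genes was −0.04, against −0.12 for all genes, and 6 of the 10 lay above that median of all genes. Dnajb9 did not reach a mean of 10 CPM and the other 9 did, and the values over the group include it. Together the 10 genes made up 0.202% of UMIs in control and 0.175% in sonKD, or 2023 (95% interval 2009 to 2036) and 1745 CPM (1731 to 1760). All intervals cover counting error only.

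**Figure D1:**
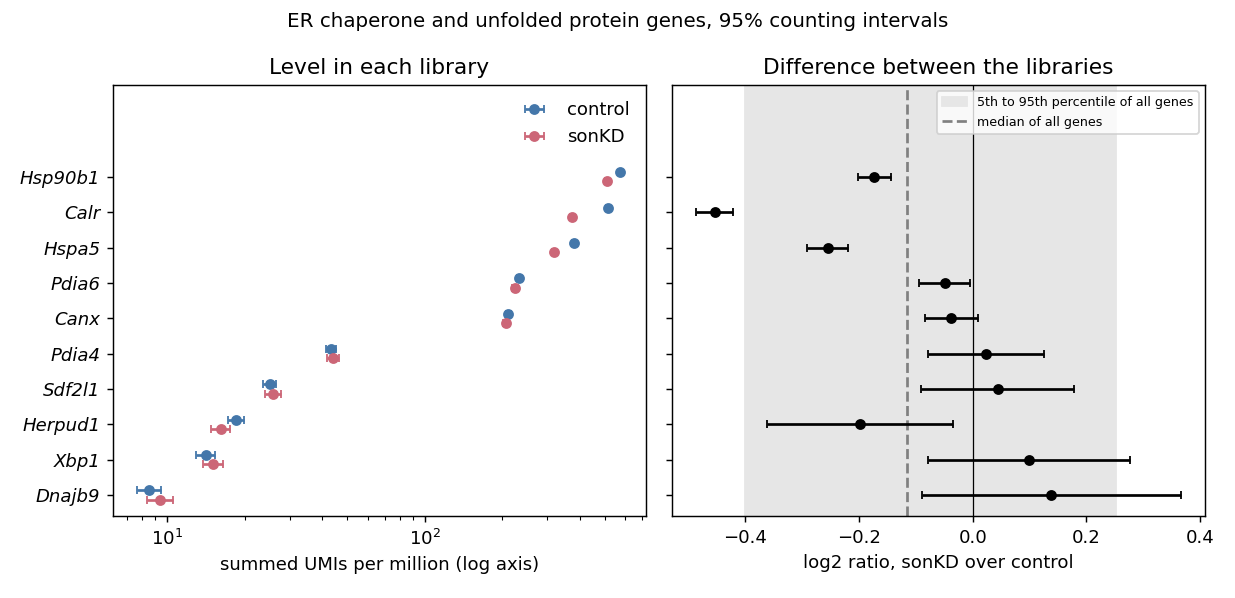
Level of each gene in the control and sonKD libraries (left, CPM on a log axis) and log2 ratio of sonKD over control (right). Bars are 95% counting intervals, and the grey band spans the 5th to 95th percentile of all genes that average 10 CPM or more. Calr lies below the band at −0.45, and the 5 intervals of Canx, Pdia4, Sdf2l1, Xbp1 and Dnajb9 include 0.

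Among the chaperones of the heat shock families, Hspa5 (Chr 2: 34771970 to 34777547, + strand, GRCm38, GENCODE M21), the ER member of the HSP70 family, stood at 379.4 CPM in control against 317.9 CPM in sonKD. Its log2 ratio was −0.25 (−0.29 to −0.22), at the 19.2th percentile of all genes. Hsp90b1 (Chr 10: 86690209 to 86705509, − strand), the HSP90 of the ER, stood at 576 CPM in control against 510.9 CPM in sonKD. It was the gene of the group with the highest level in both libraries, and its log2 ratio of −0.17 (−0.20 to −0.14) was close to the median of all genes. Of the words of 31 bases in the last 500 bases of Hsp90b1, 8.09% are also in the overlapping transcript Gm15344 on the same strand, so some of its reads could have been counted there or not at all. Both chaperones were lower in sonKD, by less than 20%.

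The lectin chaperones Calr and Canx hold glycoproteins while they fold, the first free in the ER and the second in its membrane. Calr (Chr 8: 84841850 to 84846934, − strand) was measured at 513.7 CPM in control (95% interval 506.8 to 520.7) and 375.1 CPM in sonKD (368.4 to 381.9). Its log2 ratio of −0.45 (−0.49 to −0.42) was at the 3.37th percentile of all genes. Canx (Chr 11: 50293961 to 50325673, − strand) stood at 211.8 CPM in control against 206.3 CPM in sonKD, a log2 ratio of −0.04 whose interval of −0.08 to 0.01 includes 0. The lectin pair thus differed: the libraries did not overlap within counting error for Calr and did for Canx.

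Of the protein disulfide isomerases, Pdia6 (Chr 12: 17266545 to 17284770, + strand) was measured at 232.3 and 224.5 CPM in control and sonKD, a log2 ratio of −0.05 (−0.09 to −0.005). Pdia4 (Chr 6: 47796141 to 47813430, − strand) was measured at 43.4 and 44.1 CPM, a log2 ratio of 0.02 (−0.08 to 0.12). Pdia6 overlaps Atp6v1c2 on the opposite strand. Both isomerases were within 20% of control, and the interval of Pdia4 includes 0.

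The other 4 genes had low levels. Sdf2l1 (Chr 16: 17130138 to 17132383, − strand), a partner of HSPA5 and its J-domain co-chaperones, stood at 25 CPM in control against 25.8 CPM in sonKD. Dnajb9 (Chr 12: 44205559 to 44210326, − strand), a J-domain co-chaperone of HSPA5, was measured at 8.51 and 9.37 CPM. Their log2 ratios of 0.04 (−0.09 to 0.18) and 0.14 (−0.09 to 0.37) do not separate the libraries. Herpud1 (Chr 8: 94386438 to 94395377, + strand), a membrane protein of the complexes that remove misfolded proteins, stood at 18.5 CPM in control against 16.1 CPM in sonKD, a log2 ratio of −0.20 (−0.36 to −0.03). It overlaps the antisense gene Gm15890. Xbp1 (Chr 11: 5520659 to 5525893, + strand), the transcription factor, was measured at 14.1 and 15.1 CPM, a log2 ratio of 0.10 (−0.08 to 0.28), and these counts do not tell its spliced form from its unspliced form. Herpud1 was the only one of the 4 whose interval leaves out 0.

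The order of the 10 levels, which are counts of 3′ ends and were not scaled by length, was the same in both libraries: Hsp90b1, Calr, Hspa5, Pdia6, Canx, Pdia4, Sdf2l1, Herpud1, Xbp1 and Dnajb9. Every neighbour in that order was separated by counting intervals, except Herpud1 and Xbp1 in sonKD. A UMI of Hspa5 was found in 86.3% of control and 88.2% of sonKD cells, and one of Dnajb9 in 6.79% and 10.2%. With every cell thinned to 2500 UMIs the shares were 56.8% and 49.7% for Hspa5 and 2.13% and 2.20% for Dnajb9. No cell left the thinned set, since 2500 UMIs was also the minimum for a cell.

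The direction of the small ratios depended on the scaling. With TMM factors of edgeR the median of all genes moved by 0.09 to −0.03, the median of the 10 genes became 0.05, and Pdia6 and Canx changed sign to 0.04 and 0.05. Of all genes past the fold used here, 25.6% were higher by CPM and 54.8% by TMM. Hspa5, Hsp90b1 and Calr remained lower by TMM, at −0.16, −0.08 and −0.36, and Calr was at least 20% lower by each scaling that was tried. Ribosomal protein genes made up 19.1% of the control UMIs against 22.5% of the sonKD UMIs. With those and the mitochondrial genes left out of the total, the median of the 10 genes was 0.03 and 47.8% of the called genes were higher.

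The difference in Hspa5 was not the same at all cell depths. In cells of 2500 to 5000 UMIs Hspa5 was measured at 406.1 CPM in 514 control cells and 482.3 CPM in 172 sonKD cells, a log2 ratio of 0.25 (0.05 to 0.44). In cells of 5000 to 10000 UMIs the ratio was −0.13 (−0.20 to −0.06), and at 10000 to 20000 UMIs it was −0.30 (−0.35 to −0.24). At 20000 UMIs and over, with 49 and 114 cells, it was 0.15 (−0.04 to 0.33). The sign thus differed between the 4 windows. A few cells with very high levels, described further on, weigh on the first 2 windows: without the 5 highest cells of each library, all of which lie there, the ratios of Hspa5 were 0.37 (0.17 to 0.57) and −0.38 (−0.46 to −0.30). Those of Calr were then −0.39 and −0.55. The median depth within the shallowest was 3958 UMIs in control and 3579 in sonKD. Calr was lower in sonKD in the first 3 windows, with log2 ratios of −0.42, −0.48 and −0.43, and was −0.11 (−0.27 to 0.05) in the deepest. Over the 3 windows of mitochondrial share the ratio of Hspa5 was between −0.26 and −0.22 and that of Calr between −0.60 and −0.40.

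**Figure D2:**
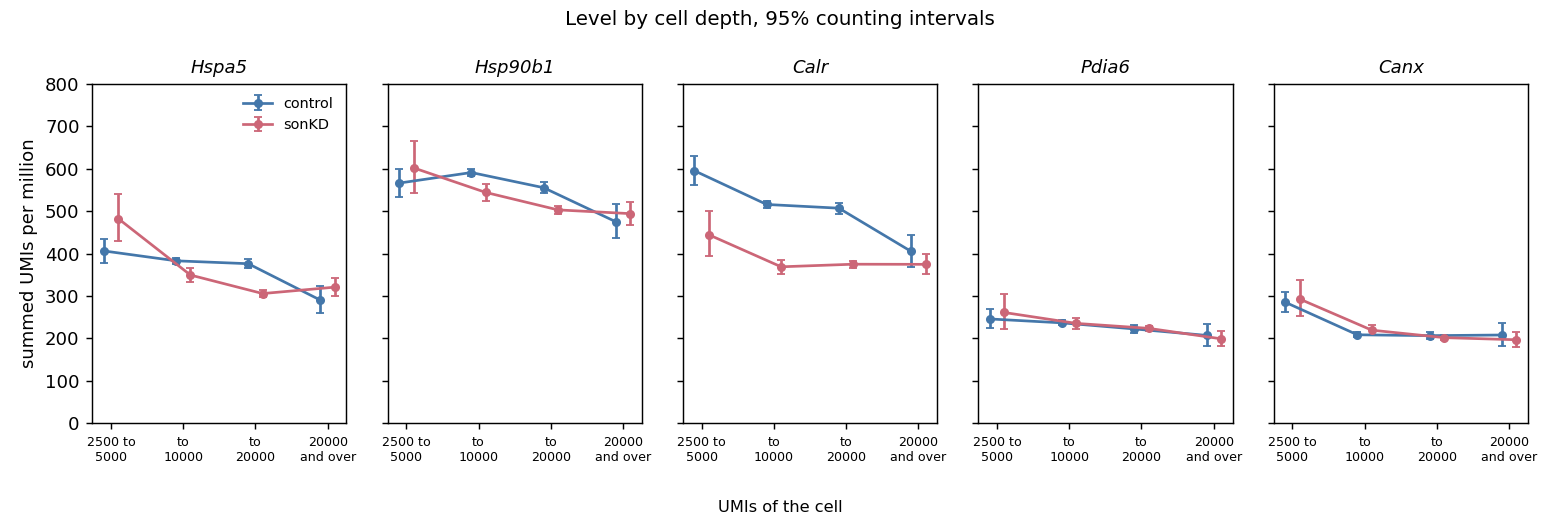
Level of the 5 most abundant genes (CPM, 95% counting intervals) in cells of 2500 to 5000, 5000 to 10000, 10000 to 20000 and at least 20000 UMIs, for control and sonKD. All cells are included. The libraries lie apart for Calr in the first 3 windows, and for Hspa5 the sonKD value is above control in the shallowest window (482.3 against 406.1 CPM).

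Outside the cells the group was measured in barcodes over the mitochondrial limit and in droplets of 100 to 500 UMIs, which hold mainly free RNA. In the barcodes over the limit the summed level was 2852 CPM in control and 2508 CPM in sonKD, higher than in the cells of either library. The median gene was also higher there, by 0.15 and 0.11 on the log2 scale, and the median of the 10 genes by 0.39 and 0.33. Hspa5 was at 617.2 and 573.7 CPM there, and Pdia6 at 386.8 and 405.4 CPM. Calr differed between the libraries in these barcodes as well, with a log2 ratio of −0.57 (−0.68 to −0.47). In the droplets the summed level was 1561 CPM in control and 1142 CPM in sonKD, lower than in the cells, and the median gene was lower than in the cells by log2 values of −0.92 and −1.03. Calr was measured at 631.9 and 385.8 CPM there, a log2 ratio of −0.71 (−0.75 to −0.67), so that free RNA held more Calr per UMI than the control cells did and differed in the same direction as the cells. The part of free RNA in the ratio of the cells was not tested.

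Over the single cells of a library, Hspa5, Hsp90b1 and Calr varied together most closely, and part of the group with them. The measure is Pearson's r of residuals, that is each count minus the count expected from the cell's total and the gene's share of the library, divided by the square root of the latter. All cells of a library share its preparation, so r is a description and carries no p. The pair Hspa5 and Hsp90b1 had r of 0.33 in control and 0.65 in sonKD. Hsp90b1 and Calr had 0.32 and 0.41, and Hspa5 and Calr had 0.32 and 0.48. In sonKD, Pdia4 had a higher r with Hspa5 (0.57) and with Hsp90b1 (0.51) than Calr did, and in control a lower one (0.12 and 0.12). Of the 45 pairs of the group, 16 reached 0.05 in both libraries, against 2.22% of the 32501953 pairs of all genes. Hspa5 was in 7 of these pairs, Hsp90b1 in 6 and Calr in 5, Xbp1 in 1, and Dnajb9 and Herpud1 in 0. The median over the 45 pairs was 0.03 in control and 0.11 in sonKD, and the median over all gene pairs was 0.002 and 0.003.

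Ranked by the lower of both libraries' r with Hspa5, Hsp90b1 came 1st and Calr 2nd of 8062 genes. Pdia6 was 4th, Pdia4 7th, Canx 26th, Sdf2l1 44th and Xbp1 70th. Thus 7 of the other 9 genes reached 0.05 in both libraries, against 1.62% of all genes. Herpud1, with 0.02 in control and 0.33 in sonKD, and Dnajb9, with 0.04 in both, did not. The 5 genes with an ERSE in the window shown above form 10 pairs, and 9 of these reached 0.05 in both libraries, with medians of 0.18 in control and 0.35 in sonKD. Of the 35 other pairs 7 did, with medians of 0.02 and 0.07. Without the 5 highest cells of each library, 9 and 5 did, with medians of 0.16 and 0.22 against 0.02 and 0.04. These 5 are also the most abundant genes, and the letters and the level cannot be told apart here.

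Of the 10 genes outside the group that followed Hspa5 most closely, 5 were in the list of ER folding co-factors. Which genes these were depended on the setting: among the 10 nearest genes, members included, that list gave 3 of 6 genes outside the group, 2 of 7 without the 5 highest cells and 1 of 7 on the log scale. Manf, an ER factor that binds HSPA5, was 3rd with r of 0.28 in control and 0.50 in sonKD. The disulfide isomerase Pdia3 (0.15 and 0.34), the stress-inducible Creld2 (0.12 and 0.27), the exchange factor Hyou1 (0.10 and 0.19), the co-chaperone Dnajb11 (0.10 and 0.19) and, outside that list, the ER membrane protein Rrbp1 (0.10 and 0.14) were also among them. The others were Dynll1, a light chain of dynein, the cytosolic chaperone Hspa8, the cyclin Ccne1, and Prrc2c, with r between 0.10 and 0.19 in either library. Manf was measured at 142.9 and 140.8 CPM in control and sonKD, a log2 ratio of −0.02 whose interval of −0.08 to 0.04 includes 0.

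**Figure D3:**
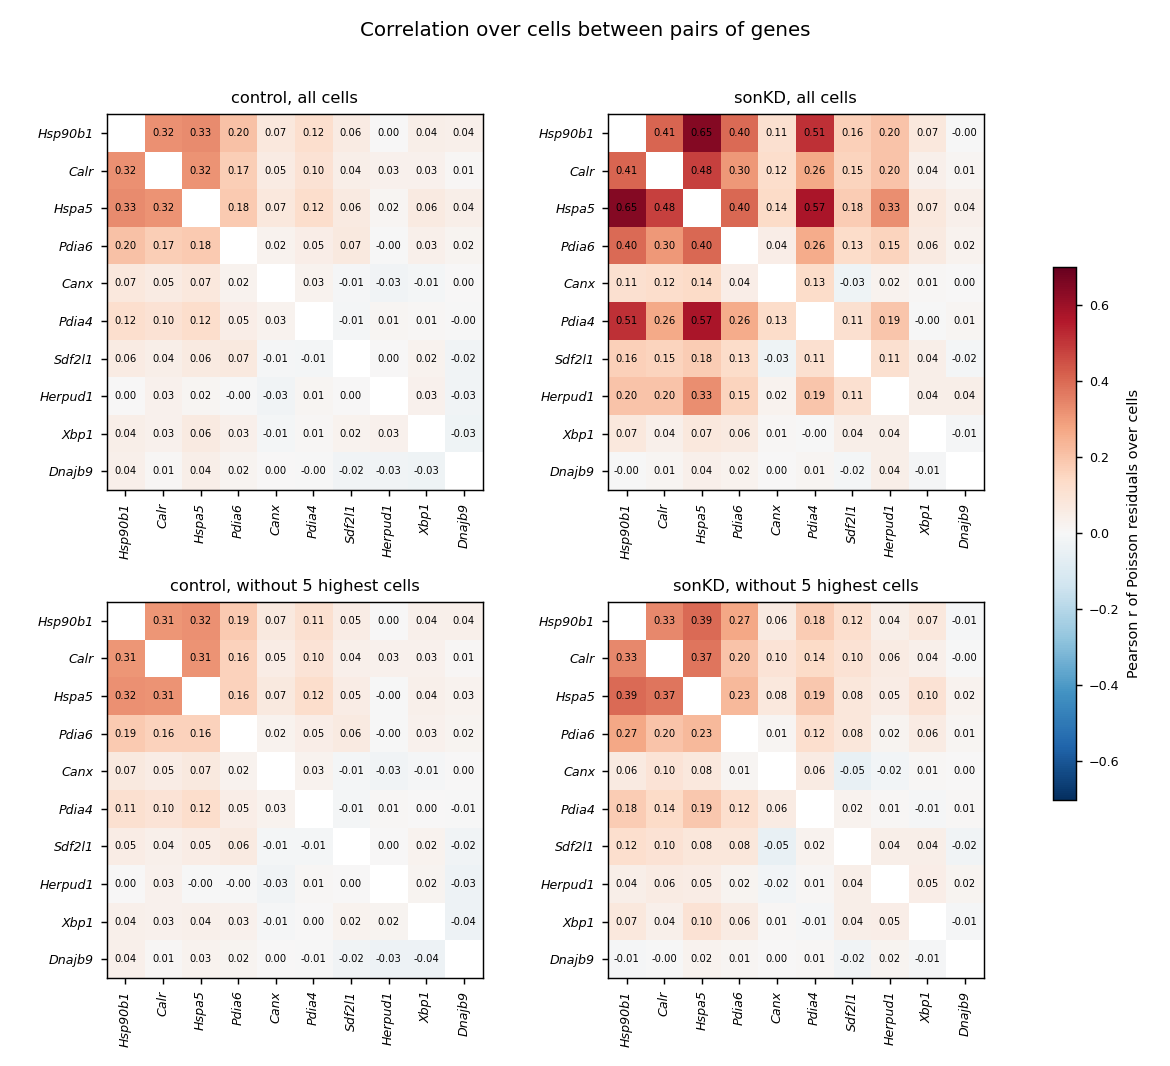
Pearson's r of residuals over cells for each pair of the 10 genes, in control and sonKD, with all cells (top) and without the 5 cells of each library that had the highest summed share of the group (bottom). The block of Hsp90b1, Calr, Hspa5 and Pdia6 is positive in all 4 panels, and the values of Pdia4 and Herpud1 in sonKD are lower in the bottom panel.

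In both libraries a handful of cells held very high levels of the group, the highest of them in sonKD. Summed over the 10 genes, the median cell had 19.3 UMIs per 10000 in control and 16.3 in sonKD, and the 99th percentile was 48.8 and 44.9. The highest cell had 170.5 per 10000 in control and 380.5 in sonKD. At or above 100 per 10000 there were 3 control cells, or 0.0603% (exact binomial 95% interval 0.0124 to 0.176), and 5 sonKD cells, or 0.183% (0.0595 to 0.427), intervals that overlap. At or above 60 per 10000 there were 20 of 4978 control cells and 11 of 2731 sonKD cells. The cells were picked by the values of the group, so their levels of it are a description.

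**Figure D4:**
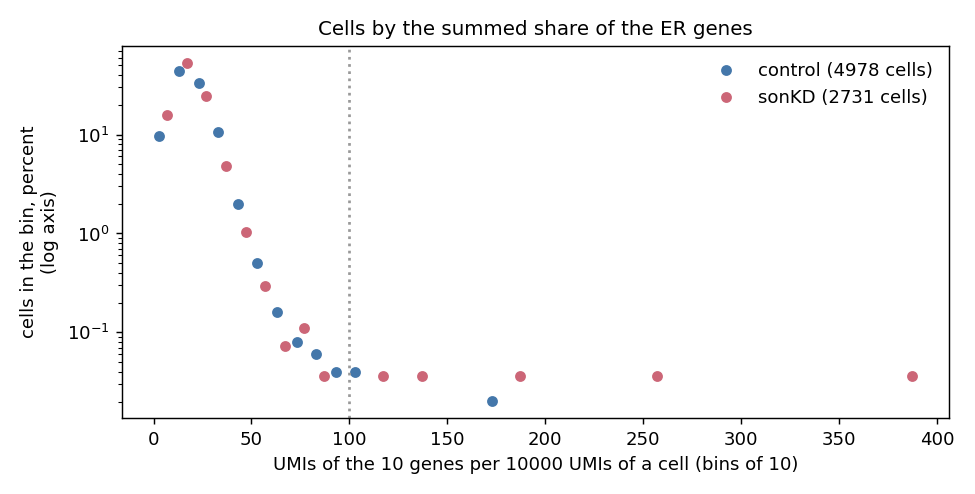
Percent of the cells of each library (log axis) in bins of the summed share of the 10 genes, in UMIs per 10000 UMIs of the cell. The dotted line marks 100 per 10000, which 3 control and 5 sonKD cells reached, and the highest cell is in sonKD at 380.5.

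The highest sonKD cell had 9171 UMIs in all, of which 128 were Hspa5, 124 Hsp90b1, 33 Pdia4, 27 Calr and 19 Pdia6. The second had 8325 UMIs with 94 of Hspa5, 38 of Calr, 28 of Hsp90b1, 22 of Pdia6 and 9 of Herpud1. The sonKD median was 3 UMIs of Hspa5 and 0 of Herpud1 per cell. The first 5 cells had 7099 to 9171 UMIs, below the sonKD median of 11612, and their mitochondrial share was 3.37% to 6.43%. They held 14 to 68 UMIs of the 8 stem cell markers, in sum 0.686 (0.603 to 0.777) of the level per UMI in the other sonKD cells. Over all sonKD cells Dppa5a alone made up 6075 of the 9219 CPM of these markers, so their sum rests mainly on that gene. The 5 cells held at most 1 UMI of the 9 primitive endoderm markers and 0 of the fibroblast markers.

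The 5 highest sonKD cells held 3.08% of all Hspa5 UMIs of that library and 3.40% of its Pdia4 UMIs. Per UMI, Hspa5 was 26.0-fold (95% counting interval 23.1 to 29.0) and Pdia4 28.7-fold (21.1 to 38.3) above the remaining sonKD cells. Herpud1 was 26.0-fold (14.8 to 42.7), Hsp90b1 14.5-fold, Pdia6 9.06-fold, Sdf2l1 7.99-fold and Calr 6.85-fold above them, and Canx 2.48-fold (1.51 to 3.83). Xbp1 and Dnajb9 had 2 and 1 UMIs there, too few for a fold. The folds were uneven, with Canx lowest of the 8 genes that had over 3 UMIs. The counting intervals pool the 5 cells and leave out the spread between them. From the first to the fifth cell, Pdia4 had 33, 8, 4, 3 and 0 UMIs, and Herpud1 had 4, 9, 3, 0 and 0. Without the 5 highest cells of each library the log2 ratio of Hspa5 was −0.29, and that of Pdia4 turned from 0.02 to −0.02.

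Some genes outside the group were high in these cells too. The co-chaperone Dnajc3 was 23.8-fold (16.5 to 33.2) above the remaining sonKD cells, with 35 UMIs, and Ddit3, the transcription factor CHOP of the PERK branch, was 23.2-fold (13.7 to 37.0), with 18 UMIs. Cell by cell, Dnajc3 had 14, 14, 2, 0 and 5 UMIs and Ddit3 had 6, 8, 0, 0 and 4. Hyou1 was 17.1-fold, Creld2 13.6-fold, Manf 11.6-fold and Pdia3 6.30-fold above them. The list of the PERK branch and ATF4 targets, which holds Ddit3, was 1.45-fold (1.18 to 1.76) above. Atf4 was 2.62-fold (1.35 to 4.57) and Trib3, on 4 UMIs, 3.71-fold (1.01 to 9.53) above. Ppp1r15a, also on 4 UMIs, was at 3.12-fold (0.848 to 8.01), an interval that includes 1. By list, ER folding co-factors were 3.92-fold (3.50 to 4.37), ER-associated degradation 2.43-fold (1.98 to 2.94) and vesicle coats of the ER and Golgi 2.10-fold (1.76 to 2.47) above the other cells. Genes of S phase were at 0.355 (0.268 to 0.461) and genes of G2/M at 0.453 (0.362 to 0.560) of the level in the other cells. These intervals also pool the 5 cells, and the values of these lists in each cell were not taken. Dnajc3, Ddit3, Atf4, Trib3 and Ppp1r15a were chosen for naming after their values were seen. Manf, Pdia3, Creld2 and Hyou1 were named for their r with Hspa5 over all cells, these 5 included. Their levels here are thus not independent of how the cells were picked.

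The 5 highest control cells were shallower, with 2906 to 4875 UMIs. Per UMI, Hspa5 was 10.7-fold (8.40 to 13.5), Hsp90b1 5.31-fold, Pdia6 5.75-fold and Calr 3.68-fold above the other control cells, and Canx was 1.05-fold (0.285 to 2.68). Manf was 14.5-fold (10.2 to 19.9) above them, and Ddit3, on 6 UMIs, 18.2-fold (6.66 to 39.8). From the first to the fifth cell, Ddit3 had 2, 4, 0, 0 and 0 UMIs. The list of the PERK branch and ATF4 targets was at 1.11-fold (0.783 to 1.53), an interval that includes 1. As in sonKD, genes of S phase (0.566, 0.413 to 0.758) and G2/M (0.410, 0.292 to 0.561) and the stem cell markers (0.814, 0.677 to 0.97) were below the level in the other cells. These intervals also leave out the spread between cells. Over all control cells Dppa5a made up 5027 of the 8456 CPM of the stem cell markers. The 5 highest control cells held at most 2 UMIs of the primitive endoderm markers.

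A few cells with primitive endoderm markers also had high levels. Cells with at least 5 UMIs of the 9 markers numbered 5 in control and 3 in sonKD, and none was among the 5 highest cells of its library. In control the group was 2.19-fold (1.93 to 2.49) above the other cells there, with Calr 3.00-fold (2.39 to 3.72) and Hspa5 2.03-fold (1.46 to 2.75). In sonKD it was 1.78-fold (1.46 to 2.16) above. Without these cells the log2 ratio of Calr stayed at −0.45 and that of Hspa5 at −0.25.

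For Hspa5, Hsp90b1, Pdia4 and Herpud1 the variation in sonKD depended on the 5 highest cells. Leaving out cells picked for a high level lowers the variance by construction. With cells thinned to 2500 UMIs, the variance of Hspa5 was 1.43 times its mean in control and 2.42 times in sonKD, where counting alone gives 1. Without the 5 highest cells of each library the values were 1.32 and 1.40. For Pdia4 they were 1.04 and 1.52 with all cells and 1.04 and 1.00 without the 5. Hsp90b1 went from 1.31 and 1.72 to 1.27 and 1.28. In sonKD, Calr went from 1.19 to 1.16, Pdia6 from 1.16 to 1.12 and Canx from 1.104 to 1.103. The median over the 1502 genes with at least 0.25 thinned UMIs per cell was 1.06 in either library, and in control Hspa5 was at the 96th and Hsp90b1 at the 92.9th percentile of these genes.

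The correlations also depended on these cells. Without the 5 cells of each library, Hspa5 and Hsp90b1 had r of 0.32 in control and 0.39 in sonKD, Hspa5 and Pdia4 0.12 and 0.19 (0.57 in sonKD with all cells), and Hspa5 and Herpud1 −0.003 and 0.05. The median over pairs in sonKD was then 0.05. With Hspa5, 6 of 9 genes reached 0.05 in both libraries, beside 3.08% of all genes. Of the 45 pairs 14 did, and the share of all gene pairs was not computed without these cells. Leaving out cells that are high in the group can by itself lower r. With all cells, r was higher in sonKD than in control for 41 of 45 pairs, in a library whose cells were also deeper. With cells thinned to 2500 UMIs and without the 5 cells, it was higher in sonKD for 22 pairs and in control for 23, and Hspa5 and Hsp90b1 had 0.17 and 0.18.

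Cells with more Hspa5 also had more of the other 9 genes, with and without the 5 cells. Among control cells with 0, 1, 2, 3 and at least 4 thinned UMIs of Hspa5, the other 9 genes had 3.70, 4.21, 4.61, 4.95 and 6.46 UMIs per cell. In sonKD they had 3.11, 3.6, 4.17, 4.63 and 7.68. Without the 5 highest cells of each library the top class had 6.18 UMIs (5.80 to 6.57, 165 cells) in control and 5.86 (5.32 to 6.45, 72 cells) in sonKD. In the classes of 0, 1 and 2 UMIs the sonKD value was below control and the intervals did not overlap, and in the higher classes without those cells they did overlap. In control Hsp90b1 went from 1.23 to 2.36 UMIs per cell between the lowest and highest class, and Calr from 1.16 to 2.18. Canx went from 0.527 to 0.574 in control, within counting error. In sonKD, with the 5 highest cells included, Canx went from 0.508 (0.471 to 0.547) to 0.844 (0.652 to 1.08), intervals that do not overlap.

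**Figure D5:**
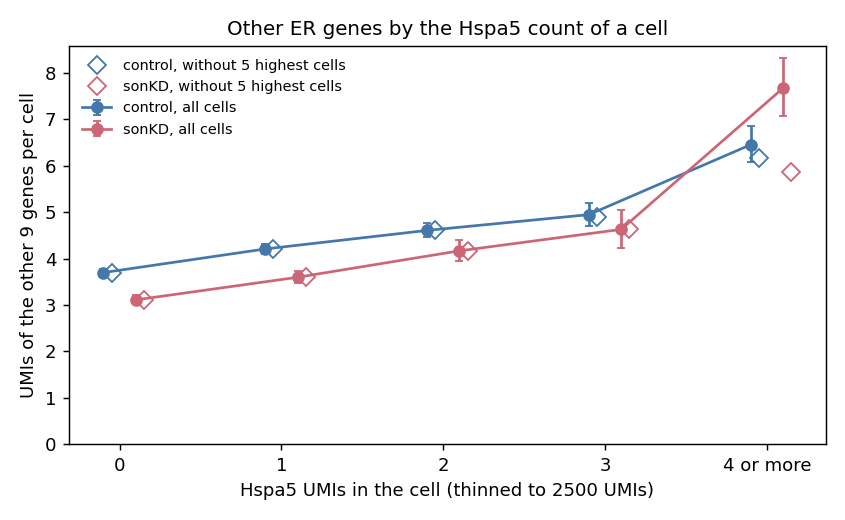
UMIs of the other 9 genes per cell (cells thinned to 2500 UMIs) in classes of cells with 0, 1, 2, 3 and at least 4 UMIs of Hspa5, with 95% counting intervals. Filled points are all cells and open diamonds leave out the 5 cells of each library with the highest summed share, which lowers the top class in sonKD from 7.68 to 5.86.

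Summed over the group, the cells' share was set beside other lists of genes. It went with ER folding co-factors (r of 0.32 in control and 0.52 in sonKD), with S phase genes (0.22 and 0.11), with the ER translocon list (0.13 and 0.16) and with vesicle coats (0.13 and 0.22). In control it went as closely with the primitive endoderm list (0.13 in control and 0.05 in sonKD) and the fibroblast list (0.13 and 0.09), most of whose UMIs were Vim. Of the 424.7 CPM of the primitive endoderm list in control, Sparc made up 223.6 and Lamc1 120.6 CPM, so that r rests mainly on these genes. In thinned cells r was 0.19 and 0.33 for the folding co-factors and 0.14 and 0.07 for S phase genes. It was 0.10 and 0.08 for the translocon list and 0.05 and 0.10 for the coats. For primitive endoderm it was 0.09 and 0.05, and for fibroblast 0.07 and 0.03. The part of cells of other types in these values was not tested. The summed share went against ribosomal protein genes (−0.20 and −0.16) and naive pluripotency genes (−0.15 and −0.14). Of the summed level of the naive list, Dppa5a made up 5027 of 10109 CPM in control and 6075 of 10773 CPM in sonKD. With G2/M genes r was 0.03 in both, with mitochondrial genes −0.01 and −0.06, and with Son 0.01 and −0.002.

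Other genes of the pathway are set beside all genes, of which 3.5% were at least 25% higher in sonKD and 10.2% at least 20% lower. Of 33 ER folding co-factors that averaged 10 CPM or more, 0 were at least 25% higher in sonKD and 4 at least 20% lower, with a median log2 ratio of −0.10, and those farthest from 0 were Cnpy2 (−0.46) and Mogs (−0.45). Of 19 genes of ER-associated degradation 0 were higher and 2 lower (median −0.16), led by the ubiquitin ligase Stub1 (−0.58) and Nploc4 (−0.34). The 6 sensors and transducers had 0 past that fold (median −0.12), with Atf6 at −0.26 and Mbtps1, the protease that cuts ATF6, at −0.18. The PERK branch with ATF4 targets had 0 higher and 3 lower of 17 (median −0.04), led by Shmt2 (−0.52) and Chac1 (−0.43). Among 17 cytosolic and mitochondrial heat shock proteins 0 passed that fold, and Hsf1 and Stip1 were farthest at −0.25 and −0.24.

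The entry machinery of the ER held 2 genes past that fold in the higher direction. Of 34 genes of the translocon, signal peptidase and oligosaccharyltransferase 2 were at least 25% higher, beside 3.5% of all genes, and 0 lower, with a median of −0.16. By TMM, 8 genes of all lists were higher, beside 5.57% of all genes, against 3 of 229 by CPM, beside 3.5%. Sec61g, the small subunit of the translocon, stood at 392.4 CPM in control against 673.7 CPM in sonKD, a log2 ratio of 0.78 (0.75 to 0.81). Ost4, the small subunit of the oligosaccharyltransferase, was measured at 91 and 169.3 CPM, a log2 ratio of 0.90 (0.84 to 0.96). Of 27 vesicle coat genes 0 were higher and 3 lower, beside 3.5% and 10.2% of all genes. Their median was −0.19, and Preb (−0.40) and Copg1 (−0.36) were farthest from 0. Outside the ER lists, the genes farthest from 0 were Prdm14 (−0.35) and Dppa5a (0.27) for naive pluripotency, Uhrf1 (−0.59) and Cdca7 (0.56) for S phase, Plk1 (−0.42) and Birc5 (−0.38) for G2/M, and Col4a1 (−0.35) and Lama1 (−0.33) for primitive endoderm. Vim, the 1 fibroblast gene at that level, was at −0.05.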

How the data were processed

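The deposited files hold UMI counts for each gene in each barcode, not normalized, which the authors made with Cell Ranger 7.1.0, per the file headers, on mm10, per the submitters' processing notes. The annotation and the use of intronic reads are not given in the sources used here. All barcodes are listed, so cells were chosen here (at least 2500 UMIs, 1000 genes, at most 10% mitochondrial UMIs). No doublet caller was run, and leaving out the barcodes with the most UMIs, at 0.8% per 1000 cells, is an alternative. Counts were summed over cells and scaled to CPM. Log2 ratios set counts under 3 to 3, and 3 UMIs in a library correspond to 0.0733 CPM in control and 0.0937 in sonKD. Intervals are 95%: for levels exact Poisson, for ratios the conditional binomial, for shares Clopper-Pearson. They cover counting error only. With 1 library per group no p-value is given, and a call means at least 25% higher or 20% lower (the same fold), or r of at least 0.05 in both libraries, with a floor of 10 CPM for genes.

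Cells were thinned at random to 2500 UMIs with a fixed seed. Promoter windows came from RefSeq (GRCm38.p6), where all 10 genes matched, and positions from GENCODE M21 (GRCm38), which held 32158 of the 32285 gene identifiers. Proteins were not analysed here. TMM factors came from edgeR 4.0.16, and other work used Python 3.11.15, numpy 2.4.6 and scipy 1.17.1. The ratio and correlation code was checked on simulated counts. The named genes are the 10 genes, Son, the 10 other genes with the highest lower r with Hspa5, and the 2 genes of each list farthest from 0. The genes and lists were chosen with earlier results of these data known. Leaving out the 5 highest cells of each library or the cells with endoderm markers was chosen after the values were seen.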

Additional observations from a re-analysis of the deposited data

How the results depend on the processing

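Calr was the 1 gene of the group at least 20% lower under each of the 11 alternatives run for that count, and 0 were at least 25% higher. The median log2 ratio of the 10 genes was 0.0466 with TMM factors and −0.17 for the 5 genes averaging 50 CPM or more, where fewer genes enter. Genes of the other lists at least 25% higher numbered 3 of 229, and 8 with TMM, 5 without mitochondrial and ribosomal protein genes, 6 with cells thinned to 2500 UMIs and 11 with no floor. The shares of all genes that much higher were 3.5%, 5.57%, 5.14%, 4.64% and 22.1% in the same order. Those at least 20% lower numbered 21 of 229, and 9 with TMM, 11 without mitochondrial and ribosomal protein genes and, at 50 CPM, 10. The number of list genes that entered changed with the setting. It was smaller at 50 CPM and larger with no floor, so the counts there are not out of 229. The shares of all genes that much lower were 10.2%, 4.59%, 5.62% and 7.05%. The median correlation over pairs in sonKD, 0.11, was 0.0529 in thinned counts, 0.0696 on the log scale, 0.0538 without the 5 highest cells and 0.0123 thinned and without them. The genes that reached r of 0.05 with Hspa5 were 7 of 9, and 4 in thinned counts, 4 thinned and without the 5 cells, and 4 of 4 at 50 CPM. The shares of all genes that did so were 1.62%, 0.211%, 0.347% and 3.4% in the same order. The cause was not tested beyond what each setting removes. Over all genes, those at least 20% lower were 820 and 370 with TMM, 495 without mitochondrial and ribosomal protein genes, 226 at 50 CPM and 3448 with no floor, and those higher were 282, 449, 453, 169 and 4484. Depth limits Dnajb9, Xbp1 and Herpud1 most, with 300 to 757 UMIs per library. No paired analysis was possible because each group held 1 library.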
